A study of Drosophila melanogaster with 8 samples.

Results

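The genes that encode 10 pore-forming subunits of voltage-gated ion channels were followed in embryos of the fruit fly Drosophila melanogaster mutant for esc. They were chosen by name: the sodium channel gene para, the calcium channel genes cac and Ca-alpha1D, and the potassium channel genes Sh, Shal, Shab, Shaw, eag, slo and KCNQ. Each of the 10 had 1 row among the 17321 genes of the deposited table. The 4 mutant libraries were maternal zygotic esc mutants, that is, embryos mutant for both the mother's contribution and their own copies of the gene. The 4 control libraries came from the wild-type laboratory strain OrgR (OregonR). The labels used here give neither the mutant allele nor an age in hours. Each library was made from total RNA of over 200 pooled whole embryos of stages 14 and 15, so it averages all cell types and both stages. Levels are in RPKM, that is reads divided by gene length and by library size.

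Voltage-gated channels open when the membrane potential changes and let a selected ion through. In excitable cells, sodium and calcium channels carry the inward currents of action potentials and of transmitter release, while potassium channels repolarise the membrane and set firing rate and rest. In Drosophila these genes are known for their roles in neurons and in body wall muscle, which become electrically active late in embryogenesis. The product of esc is a subunit of PRC2, the Polycomb complex that methylates histone H3 at genes that are to stay silent.

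The 8 libraries fall into 4 sets, a set being the 2 libraries that share a genotype and the first number in their title. The labels do not say whether those 2 libraries were repeats from 1 embryo pool, so the tests compare 2 set means per genotype. Errors are the SD of the 2 set means. Whether the sets came from separate embryo collections is not stated, so a p-value here sets a difference against a spread that may be technical. The transcript of esc averaged 3.80 ± 0.32 RPKM in esc libraries and 11.7 ± 0.19 RPKM in OrgR libraries (SD, n = 2 sets each; log2 change -1.40 ± 0.11 SE, limma adjusted p = 0.00267), so the libraries followed their labels. Across the 10547 genes that averaged 0.5 RPKM or more, 20.9% rose and 31.6% fell at an adjusted p under 0.05, and the median log2 change was -0.18. Rises made up 39.9% of the 5537 changed genes with the deposited values and 64.2% of 3934 under median-of-ratios scaling. With any 1 set left out, 2071 to 3209 genes changed.

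Of the 10 channel genes, 8 had a mean over the 0.5 RPKM filter and were tested. Among these 8, 5 rose in esc embryos (62.5%, against 20.9% of all tested genes), namely slo, Shab, KCNQ, Shaw and Shal. None fell, against 31.6% of all tested genes, except that Ca-alpha1D and Shal fell when libraries were scaled to muscle markers. Sh, cac and Ca-alpha1D did not pass. All 5 genes that rose encode potassium channels. So does Sh, and the only other tested genes were the 2 calcium channel genes, as the sodium channel gene para was not in this test. Without esc set 1 the count that rose was 3 and without esc set 2 it was 4, while leaving out OrgR set 1 gave 3 and leaving out OrgR set 2 gave 2. The 4 without esc set 2 were not all among the 5 named, as Sh entered while Shaw and Shal dropped out. The median log2 change of the 8 was 0.54, against -0.18 over all tested genes, a distance of 0.72. The filter lets a gene pass through a high level in 1 genotype: cac and Sh, with means under 0.5 RPKM in OrgR, passed it this way, and para and eag lay below it. In 7 of the 10 genes, para and 6 of the 8 tested, every esc library lay above every OrgR library, a pattern found in 26.2% of all tested genes, and in no member did every esc library lie below.

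**Figure D1:**
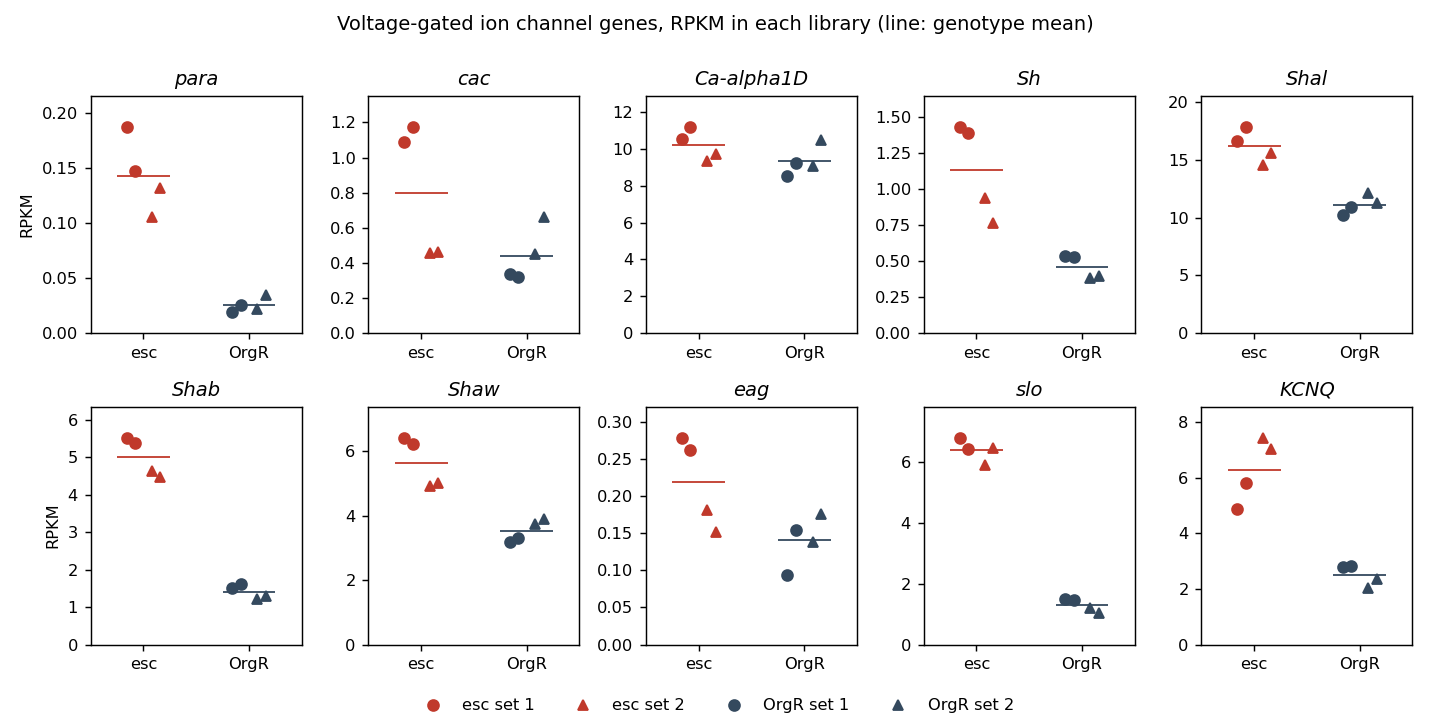
RPKM of the 10 channel genes in each library, with esc on the left and OrgR on the right of each panel; circles are set 1, triangles are set 2 and lines are genotype means. The y axes differ between panels and start at 0. The esc and OrgR points stand apart in 7 panels and overlap for cac, Ca-alpha1D and eag.

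The sodium channel gene para, the main source of the sodium current of fly neurons, was near the lower end of the measured range. It had 0.188, 0.148, 0.106 and 0.132 RPKM in esc libraries 1-1, 1-2, 2-1 and 2-2, against 0.019, 0.026, 0.022 and 0.035 RPKM in the OrgR libraries in the same order. Every esc library lay above every OrgR library, and all 8 lay above the 0.001 RPKM that the table uses as its lowest value. The means were 0.144 ± 0.035 RPKM in esc and 0.0255 ± 0.0042 RPKM in OrgR (SD, n = 2 sets each), a ratio of 5.63, the highest among the 10 genes. Since its mean was below the filter, para was not part of the main test. In fits without a filter its log2 change was 0.16 with 1 RPKM added before the logarithm (limma adjusted p = 0.0283) and 0.95 ± 0.17 with 0.1 RPKM added (limma adjusted p = 0.0159).

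The 2 calcium channel genes did not pass the test. The gene cac encodes the presynaptic calcium channel that triggers transmitter release. It had 1.09, 1.18, 0.459 and 0.460 RPKM in esc libraries 1-1, 1-2, 2-1 and 2-2, against 0.335, 0.323, 0.450 and 0.661 RPKM in the OrgR libraries in the same order. The libraries of esc set 1 were above all others, while those of esc set 2 lay inside the OrgR range. Means were 0.796 ± 0.476 RPKM in esc and 0.442 ± 0.160 RPKM in OrgR (SD, n = 2 sets each; log2 change 0.30 ± 0.22 SE, limma adjusted p = 0.302). The 95% interval of the change ran from -0.29 to 0.88. No other setting brought cac past the threshold. The 2 esc sets of cac differed by 1.30 on the log2 scale, more than those of any other member. The summed level of 14 neuron markers was 249.9 RPKM in esc set 1 and 178.1 RPKM in esc set 2, against 227.8 RPKM in OrgR set 1 and 285.8 RPKM in OrgR set 2, and within each genotype cac was higher in the set with the higher sum. The mean log2 RPKM of these markers was 3.02 in esc set 1 and 2.54 in esc set 2, against 2.34 in OrgR set 1 and 2.71 in OrgR set 2. By this measure the marker level was 0.25 higher in esc, unlike the sum. The part of neuron content in the spread of cac was not tested.

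Ca-alpha1D encodes the L-type calcium channel, which carries much of the calcium current of larval muscle. It had 10.5, 11.2, 9.35 and 9.73 RPKM in esc libraries 1-1, 1-2, 2-1 and 2-2, against 8.54, 9.20, 9.06 and 10.5 RPKM in the OrgR libraries in the same order. The ranges overlapped over most of their width. Means were 10.2 ± 0.93 RPKM in esc and 9.32 ± 0.64 RPKM in OrgR (SD, n = 2 sets each; log2 change 0.12 ± 0.12 SE, limma adjusted p = 0.440). The 95% interval of the change ran from -0.20 to 0.44 and overlapped that of Shal, from 0.18 to 0.82. Under median-of-ratios scaling the change of Ca-alpha1D was 0.29 (limma adjusted p = 0.117).

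The strongest rise among the tested members was that of slo, the BK-type potassium channel opened by calcium and depolarisation together, which ends action potentials in neurons and muscle. It had 6.80, 6.44, 5.92 and 6.46 RPKM in esc libraries 1-1, 1-2, 2-1 and 2-2, against 1.49, 1.46, 1.19 and 1.05 RPKM in the OrgR libraries in the same order. The lowest esc library was well above the highest OrgR library, and the esc sets differed little. Means were 6.40 ± 0.30 RPKM in esc and 1.30 ± 0.25 RPKM in OrgR (SD, n = 2 sets each), a ratio of 4.93 (log2 change 1.69 ± 0.13 SE, limma adjusted p = 0.00257). This change was larger than that of 92.6% of all tested genes, and it passed in all 29 other settings.

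Shab, a delayed rectifier of the Kv2 family that repolarises neurons and muscle over longer depolarisations, followed. It had 5.52, 5.38, 4.64 and 4.47 RPKM in esc libraries 1-1, 1-2, 2-1 and 2-2, against 1.52, 1.62, 1.23 and 1.29 RPKM in the OrgR libraries in the same order. The groups did not overlap, and set 1 was the higher set in both genotypes. Means were 5.0 ± 0.63 RPKM in esc and 1.41 ± 0.22 RPKM in OrgR (SD, n = 2 sets each), a ratio of 3.54 (log2 change 1.31 ± 0.14 SE, limma adjusted p = 0.00479). The rise passed in 28 of 29 other settings, the exception being libraries scaled to the muscle markers (log2 change 0.34, limma adjusted p = 0.194).

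KCNQ encodes the fly member of the Kv7 family, whose slow, non-inactivating current steadies the resting potential. It had 4.87, 5.83, 7.44 and 7.03 RPKM in esc libraries 1-1, 1-2, 2-1 and 2-2, against 2.80, 2.81, 2.05 and 2.36 RPKM in the OrgR libraries in the same order. All esc libraries were above all OrgR libraries, and set 2 was the higher one in esc but the lower one in OrgR. Means were 6.29 ± 1.34 RPKM in esc and 2.51 ± 0.42 RPKM in OrgR (SD, n = 2 sets each), a ratio of 2.51 (log2 change 1.05 ± 0.18 SE, limma adjusted p = 0.0131). The call was lost without OrgR set 2 (limma adjusted p = 0.0614) and under quantile normalisation (limma adjusted p = 0.0522). Reads were not assigned by strand, and 27.4% of the annotated exon bases of KCNQ lie under other genes, so its reads may include theirs. Of these, 6.84% of the exon bases are shared with CG18011, which fell (3.22 RPKM in esc and 4.55 RPKM in OrgR, log2 change -0.40, limma adjusted p = 0.0412), though not under median-of-ratios scaling (limma adjusted p = 0.144) or without any 1 set, and 20.6% with the antisense RNA CR45133, which stood at the lowest value in all 8 libraries. Of the other members, only Ca-alpha1D shared exon bases, 2.37% with the antisense RNA CR43806, also at the lowest value in all 8 libraries.

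Shaw, a Kv3-family channel that in flies opens over a wide voltage range and holds neurons near rest, rose by less. It had 6.42, 6.24, 4.91 and 5.01 RPKM in esc libraries 1-1, 1-2, 2-1 and 2-2, against 3.18, 3.30, 3.76 and 3.89 RPKM in the OrgR libraries in the same order. The groups stood apart, with esc set 2 and OrgR set 2 closest to each other. Means were 5.65 ± 0.97 RPKM in esc and 3.53 ± 0.41 RPKM in OrgR (SD, n = 2 sets each), a ratio of 1.60 (log2 change 0.55 ± 0.16 SE, limma adjusted p = 0.0404). The call did not survive the loss of any 1 of the 4 sets (limma adjusted p from 0.0561 without esc set 2 to 0.146 without OrgR set 1), and under quantile normalisation the change was 0.04. Without a filter on low genes the Shaw call was lost as well (limma adjusted p = 0.0660), and the count of members that rose stayed at 5 because para entered it.

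Shal, the Kv4-family channel behind the fast transient A-type current of neuronal cell bodies and dendrites, had the highest mean of the 10 genes in both genotypes. It had 16.6, 17.9, 14.6 and 15.6 RPKM in esc libraries 1-1, 1-2, 2-1 and 2-2, against 10.2, 10.9, 12.1 and 11.2 RPKM in the OrgR libraries in the same order. The esc libraries were all above the OrgR libraries. Means were 16.2 ± 1.52 RPKM in esc and 11.1 ± 0.80 RPKM in OrgR (SD, n = 2 sets each), a ratio of 1.45, the smallest among the members that rose (log2 change 0.50 ± 0.12 SE, limma adjusted p = 0.0273). It too missed the threshold when any 1 set was left out (limma adjusted p from 0.0704 without esc set 2 to 0.117 without esc set 1).

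Sh, the founding member of the Kv1 family, carries the A-type current of muscle and axons, and its mutants shake their legs under ether. It had 1.43, 1.39, 0.937 and 0.763 RPKM in esc libraries 1-1, 1-2, 2-1 and 2-2, against 0.533, 0.527, 0.385 and 0.394 RPKM in the OrgR libraries in the same order. The groups did not overlap, and set 1 was the higher set in both. Means were 1.13 ± 0.40 RPKM in esc and 0.460 ± 0.099 RPKM in OrgR (SD, n = 2 sets each), a ratio of 2.46, yet the test narrowly missed the threshold (log2 change 0.53 ± 0.17 SE, limma adjusted p = 0.0538). It passed in 9 of 28 other settings, among them median-of-ratios scaling (limma adjusted p = 0.0493) and a pseudocount of 0.1 RPKM (limma adjusted p = 0.0444), while under quantile normalisation the change was 0.014 (limma adjusted p = 0.950). It also passed without esc library 2-2 (limma adjusted p = 0.0372) or without the whole of esc set 2 (limma adjusted p = 0.0296). The 1 RPKM added before the logarithm shrinks changes at this level.

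The channel gene eag, which gave the EAG family its name, was low in both genotypes. It had 0.279, 0.263, 0.182 and 0.152 RPKM in esc libraries 1-1, 1-2, 2-1 and 2-2, against 0.094, 0.154, 0.138 and 0.176 RPKM in the OrgR libraries in the same order. The highest OrgR library lay above the lowest esc library. The means were 0.219 ± 0.074 RPKM in esc and 0.140 ± 0.023 RPKM in OrgR (SD, n = 2 sets each), below the filter. Without a filter it did not pass at any of the 3 pseudocounts (limma adjusted p from 0.225 to 0.287).

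**Figure D2:**
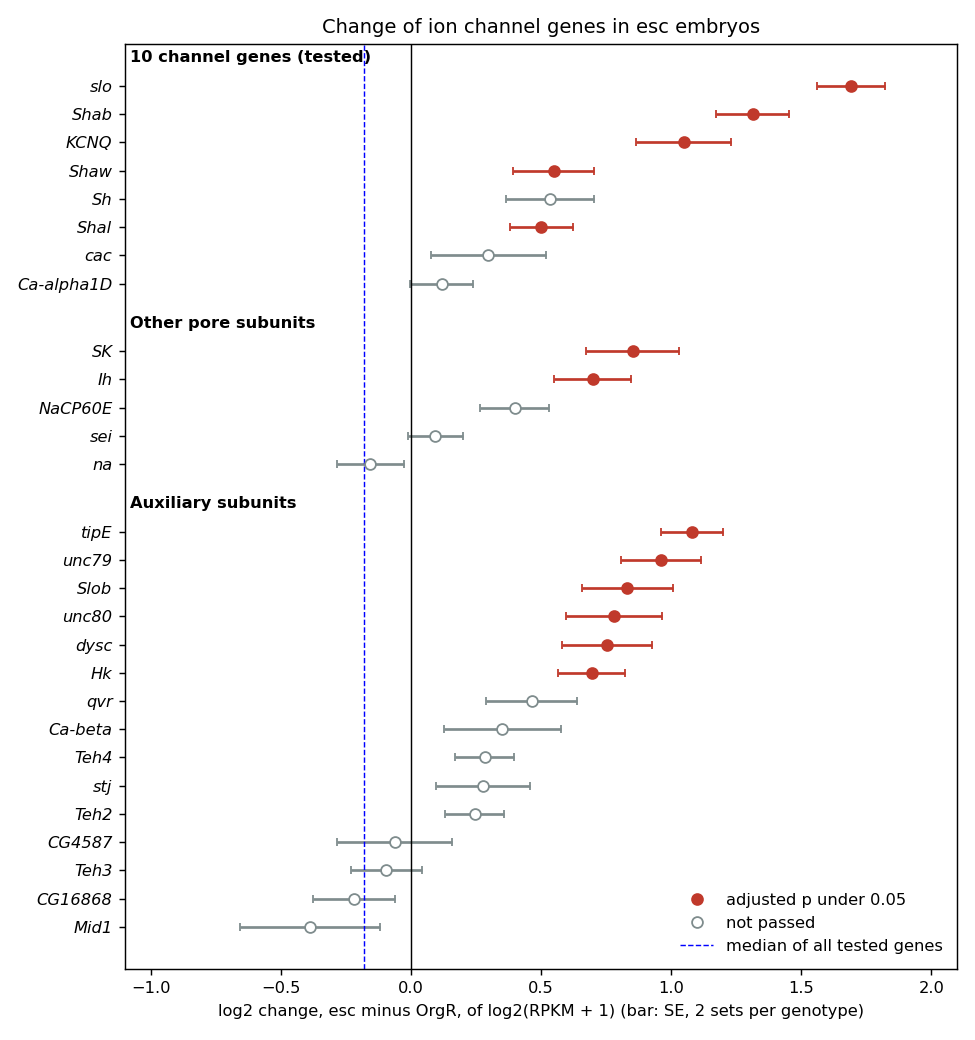
Log2 change of log2(RPKM + 1), esc minus OrgR, of the tested channel genes, other pore subunits and auxiliary subunits; bars are standard errors of the limma fit over 2 sets per genotype, and the dashed line is the median of all tested genes. Filled points passed an adjusted p under 0.05; all of them lie to the right of 0, and slo is farthest right at 1.69.

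The 10 genes together made up 53.7, 55.9, 48.5 and 49.8 RPKM in esc libraries 1-1, 1-2, 2-1 and 2-2, against 28.7, 30.3, 30.4 and 31.6 RPKM in the OrgR libraries in the same order. Most of this sum came from 6 genes, and its makeup differed between genotypes. The 7 potassium channel genes held 77.6% to 79.6% of it in esc and 64.6% to 69.0% in OrgR. The share of slo was 11.5% to 13.0% in esc and 3.33% to 5.20% in OrgR, while the share of Ca-alpha1D was 19.3% to 20.02% in esc and 29.7% to 33.2% in OrgR. Such shares do not change when a library is scaled by a single factor. Quantile normalisation moved the members unequally, with a log2 change of 0.47 for Shal and 0.04 for Shaw. Relative to Shal, slo stood at 0.360 to 0.415 in esc and 0.0935 to 0.146 in OrgR, and Shab at 0.287 to 0.333 in esc and 0.101 to 0.149 in OrgR. Summed potassium channel level over summed calcium channel level was 3.51 to 3.94 in esc and 1.83 to 2.23 in OrgR. None of these 3 ratios overlapped between the genotypes. They restate the changes of the single genes given above, and ratios of other gene pairs were not examined.

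**Figure D3:**
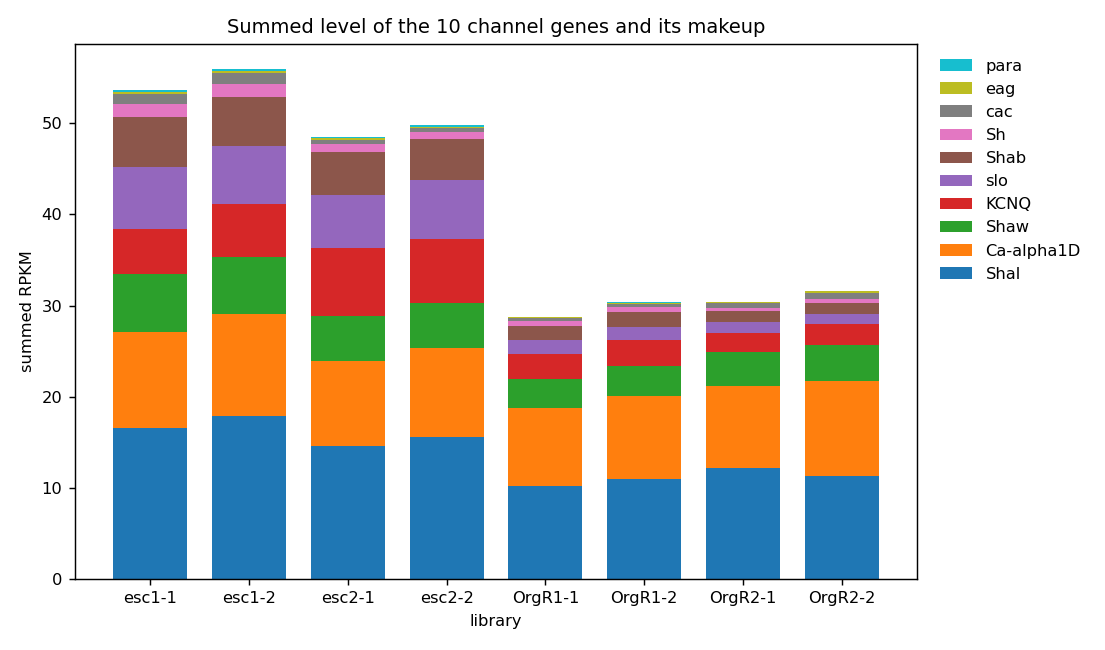
Summed RPKM of the 10 channel genes in each library, esc libraries on the left and OrgR libraries on the right, with each gene as a coloured part of the bar. The sums are 48.5 to 55.9 RPKM in esc and 28.7 to 31.6 RPKM in OrgR, and the slo and Shab parts take up more of the esc bars.

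The order of levels also differed. In esc, Shal was followed by Ca-alpha1D, then by slo, KCNQ, Shaw and Shab, then by Sh and cac, and last by eag and para. Within the run from slo to Shab, and between Sh and cac and between eag and para, the libraries of neighbours overlapped, so their order is not resolved. In OrgR, Shal and Ca-alpha1D overlapped at the top and were followed by Shaw, KCNQ, then Shab and slo, which overlapped, then Sh and cac, which overlapped too, then eag and para. Against all genes in the table, the mean level of slo exceeded 54.7% of genes in esc and 47.5% in OrgR, and that of Ca-alpha1D exceeded 60.0% in esc and 60.3% in OrgR.

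Precision was lowest for the lowest genes. The 2 libraries of a set differed by at most 0.05 on the log2 scale for Shaw and 0.10 for Shab, but by up to 0.67 for para and 0.71 for eag, the members with the lowest levels. Since RPKM tables hold no read numbers, the depth behind each value is unknown.

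The genes lie on several chromosomes (positions in build dm6, from the Ensembl annotation). On X lie para (16455027-16533096, minus strand), cac (11931280-11985087, minus strand), Sh (17924307-18063247, minus strand) and eag (14955477-15009989, plus strand). On 3L lie Shal (19566851-19584568, minus strand) and Shab (2895017-2959579, plus strand), and on 2L lie Shaw (3718185-3729145, plus strand) and Ca-alpha1D (16165831-16190540, plus strand). The gene slo is on 3R (24662491-24711595, plus strand) and KCNQ on 2R (10145897-10192394, minus strand). Most are long genes with many isoforms: para has 60 annotated transcripts over 34 exon blocks, and slo 23 over 35. The table has 1 value per gene, so isoforms, among them those from the separate neuronal and muscle promoters of slo, are not told apart. Of the 4 X-linked members, para and eag lay below the filter, so only cac and Sh were tested.

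The rest of the channel machinery was read from lists of genes chosen by function. Of 9 other pore subunits, 5 were tested, 2 rose, none fell and 3 did not pass, whereas under quantile normalisation none rose and 2 fell, namely sei and na. The gene SK, a potassium channel opened by calcium alone, had 3.01 ± 0.75 RPKM in esc and 1.21 ± 0.24 RPKM in OrgR (SD, n = 2 sets each; log2 change 0.85, limma adjusted p = 0.0196). The pacemaker channel gene Ih had 2.94 ± 0.082 RPKM in esc and 1.45 ± 0.37 RPKM in OrgR (SD, n = 2 sets each; log2 change 0.70, limma adjusted p = 0.0199). The SK call was lost without OrgR set 1 (limma adjusted p = 0.0780) or OrgR set 2 (limma adjusted p = 0.0581). The Ih call was lost without OrgR set 1, esc set 1 or esc set 2 (limma adjusted p from 0.0564 to 0.0714). The sodium channel relative NaCP60E (log2 change 0.40, limma adjusted p = 0.0604), the ERG-type channel sei (log2 change 0.09, limma adjusted p = 0.490) and the sodium leak channel na (log2 change -0.16, limma adjusted p = 0.345) did not pass, though NaCP60E did in 5 of 27 other settings, among them median-of-ratios scaling (limma adjusted p = 0.0393), centring on the median gene (limma adjusted p = 0.0459) and without OrgR library 2-2 (limma adjusted p = 0.0397). The other 4 lay below the filter. The T-type calcium channel gene Ca-alpha1T had 0.547 RPKM in esc and 0.148 RPKM in OrgR, and Shawl had 0.159 RPKM in esc and 0.0228 RPKM in OrgR, where 1 library was at the lowest value of the table. SLO2 had 0.693 RPKM in esc and 0.305 RPKM in OrgR, and Elk had 0.388 RPKM in esc and 0.282 RPKM in OrgR. Without a filter, the first 3 of these passed (limma adjusted p of 0.00939, 0.0150 and 0.0149) and Elk did not (limma adjusted p = 0.152).

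Auxiliary and regulatory subunits gave a mixed count. Of 16 listed genes in the table, 15 were tested, 6 rose, none fell and 9 did not pass, whereas under quantile normalisation 1 rose, tipE, and 1 fell, Teh3. The largest rise was that of tipE, an accessory subunit that raises para currents, with 3.41 RPKM in esc and 1.10 RPKM in OrgR (log2 change 1.08 ± 0.12 SE, limma adjusted p = 0.00524), which passed in the other settings except with libraries scaled to the muscle markers (log2 change 0.18, limma adjusted p = 0.455). Partners of the potassium channels above also rose: Hk, the beta subunit of Sh (log2 change 0.69, limma adjusted p = 0.0146), and Slob and dysc, which bind or regulate the slo channel (log2 change 0.83, limma adjusted p = 0.0198, and log2 change 0.75, limma adjusted p = 0.0243). The remaining rises were unc79 and unc80, subunits of the na channel complex (log2 change 0.96, limma adjusted p = 0.0111, and log2 change 0.78, limma adjusted p = 0.0261), while na itself did not pass. With OrgR means under 0.5 RPKM, Hk (0.3795 RPKM) and dysc (0.245 RPKM) passed the filter through their esc levels, so their rises are partly set by the filter. Hk missed the threshold without OrgR set 2 (limma adjusted p = 0.0686). Without OrgR set 2 or either esc set, Slob (limma adjusted p from 0.0588 to 0.0669) and unc80 (limma adjusted p from 0.0613 to 0.0936) missed it too, and dysc did so without OrgR set 1 or OrgR set 2 (limma adjusted p from 0.0782 to 0.0934). The calcium channel partners Ca-beta (log2 change 0.35, limma adjusted p = 0.243) and stj (log2 change 0.28, limma adjusted p = 0.249) did not pass, nor did cac and Ca-alpha1D. Ca-beta did pass in 1 of 27 other settings, marker scalings aside. The Sh regulator qvr, the para accessory genes Teh2, Teh3 and Teh4, CG4587, CG16868 and Mid1 did not pass either, except that Teh4 did under median-of-ratios scaling (limma adjusted p = 0.0373), Teh2, Teh4 and qvr did with the 8 libraries taken as samples, and qvr did with crossed set numbers as a block and without OrgR library 2-2 (limma adjusted p = 0.0353) or esc library 2-2 (limma adjusted p = 0.0471). Taking the 8 libraries as samples treats the 2 libraries of a set as independent. The labels do not say that they are, so those passes may rest on repeats of 1 pool. Teh3 passed as a fall under quantile normalisation, as given above. Teh1 lay below the filter, with 0.575 RPKM in esc and 0.124 RPKM in OrgR, and passed without a filter at all 3 pseudocounts (limma adjusted p from 0.0139 to 0.0297). Over both lists, 8 of 20 tested genes rose, with a median log2 change of 0.37, against 20.9% of all tested genes. The count depends on scaling: 1 rose and 3 fell under quantile normalisation, 1 rose and none fell with neuron scaling, and none rose and 11 fell with muscle scaling, while 10 rose and none fell under median-of-ratios scaling.

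Of 3 genes that act on channel RNA, 1 fell (33.3%, against 31.6% of all tested genes) and 2 did not pass. The helicase gene mle, needed for correct para transcripts, fell to 16.8 RPKM in esc, against 26.3 RPKM in OrgR (log2 change -0.62, limma adjusted p = 0.0108). The translational repressor of para, pum, had a log2 change of -0.57 (limma adjusted p = 0.0519), and the RNA editing enzyme gene Adar one of -0.15 (limma adjusted p = 0.351). Leaving out OrgR library 1-1 (limma adjusted p = 0.0278), OrgR library 2-2 (limma adjusted p = 0.0430) or OrgR set 1 (limma adjusted p = 0.0415) brought pum past the threshold as a fall. The fall of mle was lost without OrgR set 2 (limma adjusted p = 0.0585) or esc set 2 (limma adjusted p = 0.0608).

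Markers of the cell types that use these channels moved unequally. In whole embryos, fewer cells of a type and less RNA per cell cannot be told apart, and the same holds for more of either. Of 11 muscle markers, 9 rose (81.8%, against 20.9% of all tested genes) and none fell (against 31.6%). Both counts were the same under median-of-ratios scaling and quantile normalisation. The muscle markers had a median log2 change of 1.44, with a summed level of 19070 to 20890 RPKM in esc and 5771 to 7820 RPKM in OrgR. The strongest were the muscle LIM protein gene Mlp60A (log2 change 3.04, limma adjusted p = 0.00238) and the myosin light chain gene Mlc2 (log2 change 2.05, limma adjusted p = 0.00610). The muscle marker Mef2, singled out after its values were seen, had 116 RPKM in esc and 138 RPKM in OrgR. Every esc library of Mef2 lay below every OrgR library, but it did not pass (log2 change -0.25, limma adjusted p = 0.104). Of 14 neuron markers, 3 rose (21.4%, against 20.9% of all tested genes), 1 under quantile normalisation, none fell and 11 did not pass, with a median of 0.13 (-0.23 under quantile normalisation) and a summed level of 177 to 252 RPKM in esc and 222 to 297 RPKM in OrgR. The sum is weighted to the highest of these markers, while their mean log2 RPKM was 0.25 higher in esc. The synaptic gene Snap25 (log2 change 0.94, limma adjusted p = 0.00656) and Gad1, the enzyme gene of GABA synthesis (log2 change 0.87, limma adjusted p = 0.00808), rose most. The pan-neuronal gene elav, singled out after its values were seen, had 16.9 RPKM in esc and 30.3 RPKM in OrgR and did not pass (limma adjusted p = 0.164). No marker of either list was at the lowest value of the table in any library.

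Markers of other cells went the other way or were mixed. Of 5 neuroblast markers, 4 fell (80%, against 31.6% of all tested genes), among them ase (log2 change -1.09, limma adjusted p = 0.00400) and mira (log2 change -0.998, limma adjusted p = 0.00332). The neuroblast marker sum was 93.2 to 97.6 RPKM in esc and 171 to 176 RPKM in OrgR. Of 7 glia markers, 4 fell (57.1%, against 31.6% of all tested genes), among them gcm (log2 change -1.02, limma adjusted p = 0.00395) and repo (log2 change -0.66, limma adjusted p = 0.0224). Under median-of-ratios scaling 2 glia markers fell and 1 rose. The glia marker sum was 467 to 535 RPKM in esc and 605 to 680 RPKM in OrgR. Of 4 trachea markers, verm rose (log2 change 0.69, limma adjusted p = 0.00838), btl fell (log2 change -0.63, limma adjusted p = 0.0425) and 2 did not pass. These shares, 25% each way, were near the 20.9% that rose and 31.6% that fell among all tested genes. The fall of btl did not pass under median-of-ratios scaling. Sums of the trachea markers were 1608 to 1930 RPKM in esc and 1132 to 1252 RPKM in OrgR. All 6 late cuticle markers rose, with a median of 8.72 and sums of 4127 to 7676 RPKM in esc and 9.97 to 13.6 RPKM in OrgR. They were picked partly on earlier results of these libraries and are no independent evidence. Embryo age within the 2 stages and genotype cannot be told apart in these pools, and the part of cell type makeup or of age in the channel gene changes was not tested.

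**Figure D4:**
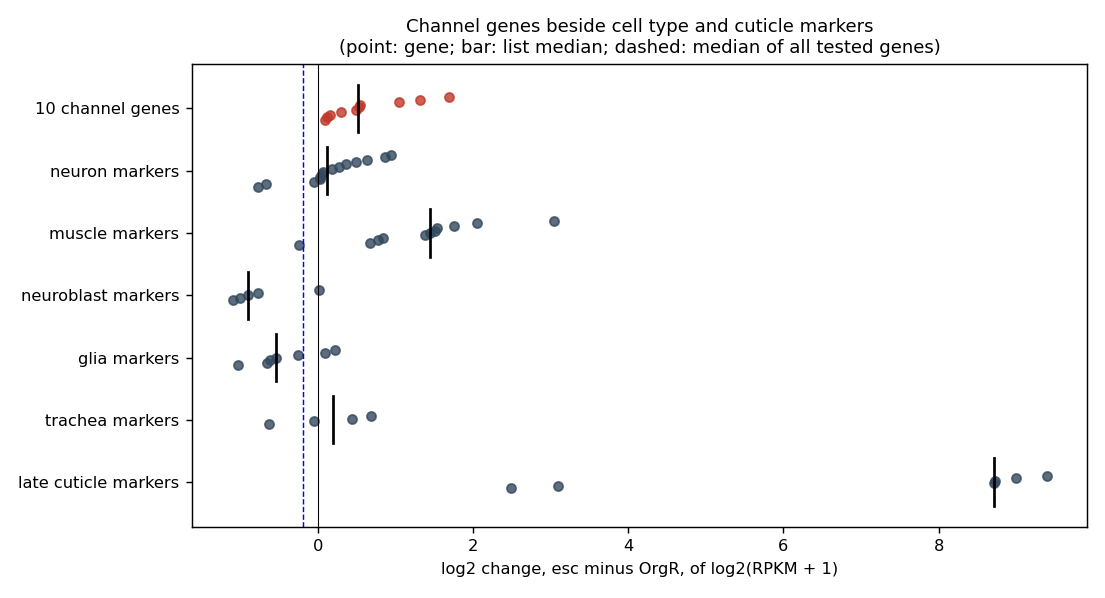
Log2 change of log2(RPKM + 1), esc minus OrgR, of each channel gene and of each marker gene, in rows by list; black bars are list medians and the dashed line is the median of all tested genes. Medians are 1.44 for muscle markers, 0.13 for neuron markers and 8.72 for late cuticle markers, and the 10 channel genes, para and eag included, have a median of 0.52.

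The members were also read against these cell type markers directly. Mean log2 RPKM was 0.25 higher in esc for the 14 neuron markers and 1.36 higher for the 11 muscle markers. With every library scaled to the mean log2 level of the 14 neuron markers, slo (log2 change 1.5, limma adjusted p = 0.000170) and Shab (log2 change 1.13, limma adjusted p = 0.00812) still rose, while KCNQ, Shaw and Shal did not pass. With libraries scaled to the 11 muscle markers, slo was the 1 member that rose (log2 change 0.70, limma adjusted p = 0.00756), and Ca-alpha1D (log2 change -1.12, limma adjusted p = 0.000796) and Shal (log2 change -0.77, limma adjusted p = 0.0217) fell. These scalings were chosen after the data were seen, and each gives the change of a channel gene relative to the marker level, not in an average cell. In both fits limma gave every gene the spread of the common trend, with no weight on its own, so these p-values do not test a gene against its own spread.

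For each member, the genes most like it over the 8 libraries were found among 9891 genes that averaged 1 RPKM or more, as those with the smallest root-mean-square difference of centred log2(RPKM + 1) values. This measure compares size and direction of change together, so it also picks genes with little change for members with little change. Among the genes nearest to slo were CG12507 (0.035) and bdl (0.067), which had log2 changes of 1.66 and 1.70. Nearest to Shab were CG46026 (0.050), the muscle glutamate receptor subunit gene GluRIIC (0.056) and CG16786 (0.059). The nearest to cac were the calmodulin gene Cam (0.064), Hers (0.066) and the calcium channel subunit gene stj (0.076). Nearest to Shaw was Tig (0.035), to Shal Cad89D (0.045), to Sh CG11905 (0.066), to KCNQ CG3604 (0.088) and to Ca-alpha1D CG9626 (0.036). For para and eag, whose values are small beside the added 1 RPKM, the nearest genes were CG31999 (0.014) and CG9267 (0.021), genes with log2 changes of 0.17 and 0.09.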

How the data were processed

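The authors deposited 1 table with an RPKM value per gene and library for 8 libraries, 4 per genotype, linear and unfiltered per the labels. Libraries were unstranded and paired, per the labels' protocols. Per the submitters' processing notes, the genome build was dm6. The aligner, counter and gene lengths are not given in the sources used here. RPKM holds no counts, so no interval from read numbers is given. The lowest value, 0.001 RPKM, filled 27.6% of cells and was treated as a floor.

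From these values, log2(RPKM + 1) was averaged within sets and the 4 set means were compared with limma 3.58.1 in R 4.3.3 (lmFit, eBayes with a variance trend; 2 residual and 4.55 moderated degrees of freedom). Genes with a mean under 0.5 RPKM were left out of the test. Tests were two-sided, with Benjamini-Hochberg adjustment over 10547 genes and a threshold of 0.05. Confidence intervals are at 95% from the same fit. The log2 scale with 1 RPKM added understates changes of low genes. The fit was run beforehand on simulated data with 200 changed genes, against 5537 genes called here. That run does not measure error rates in these data. Tables were made with Python 3.11.15 and pandas 2.3.3.

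The members, gene lists and named genes were chosen with earlier results of these data known. All 10 members and all genes of the pore, auxiliary and RNA lists could be named. From other lists, up to 2 genes with the largest rise and 2 with the largest fall among those past the threshold were named, or the 2 with the smallest p, and for likeness the nearest genes. The markers elav and Mef2 were named outside this rule. In all, 29 alternatives were run: other pseudocounts, filters, scalings and models, each library or set left out, a set-number block, and scalings to markers. The set numbers are not said to mark a shared batch. The fit with 8 libraries as samples takes the 2 libraries of a set as independent, which the labels do not state. It gave 8006 changed genes, against 5537, and its passes enter the counts of settings passed. Positions and exon overlaps are from the Ensembl annotation of dm6. No sequence is shown. Some items are not reported here.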

Additional observations from a re-analysis of the deposited data

Results flagged for a closer look

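In 3 of 76 groups of 4 libraries, 1 library lay far from the other 3 of its genotype, by a gap test that chance passes in about 1 of 20 groups. None of the 10 channel genes was among them. Shawl had 0.126 RPKM in esc library 2-1, against 0.169 to 0.172 RPKM in the other esc libraries. SLO2 had 0.510 RPKM in the same library, against 0.736 to 0.777 RPKM in the others. Teh3 had 0.784 RPKM in OrgR library 1-1, against 0.668 to 0.682 RPKM in the other OrgR libraries.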

How the results depend on the processing

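The count of channel genes that rose, 5, was 3 under quantile normalisation, 3 with the set number as a replicate block, 2 with libraries scaled to the neuron markers and 1 with libraries scaled to the muscle markers, and it ranged from 2 to 6 over fits without 1 library or set. The count that fell, 0, was 2 with muscle scaling and 0 in the other settings. Of all genes, 5537 changed, against 2467 with the replicate block, 1795 with neuron scaling, 9357 with muscle scaling and 2071 to 5730 with 1 library or set left out. Same-numbered sets of the 2 genotypes deviated from their group means with a correlation of -0.34 across genes. A block with crossed numbers was therefore added, which gave 6717 changed genes and 5 channel genes that rose. No label gives this pairing. It was chosen from these values, so a gain in calls was partly built in and is no support. It is 1 of the 29 settings counted here. Under the replicate block slo, Shab and KCNQ passed, while Shal (limma adjusted p = 0.0883) and Shaw (limma adjusted p = 0.102) did not. Signs turned under quantile normalisation for cac (-0.21), Ca-alpha1D (-0.046), NaCP60E (-0.21), sei (-0.42), Teh2 (-0.22), qvr (-0.12), Ca-beta (-0.013) and stj (-0.16), and of these sei fell (limma adjusted p = 0.0285). They turned under median-of-ratios scaling for CG4587 (0.025) and Adar (0.035), under neuron scaling for Ca-alpha1D (-0.11), and under muscle scaling for cac (-0.21), Ca-alpha1D (-1.12), Sh (-0.029), Shal (-0.77), Shaw (-0.57) and KCNQ (-0.031). Of the 23 tested genes of the other pore, auxiliary and RNA lists, 10 turned under muscle scaling and 1, sei, under neuron scaling, and the median of the auxiliary list was -0.63 and that of the other pore subunits -0.49 under muscle scaling. With 1 library or set left out, CG4587 ranged from -0.31 to 0.18 and Teh3 from -0.23 to 0.040. Leaving out a set leaves 3 set means and assumes that the lone set varies like the others; scaling to markers sets the reference level by construction; the cause of the other turns was not tested. Among the members, only slo passed in all 29 other settings. RPKM gives no depth, so low genes such as para and eag rest on an unknown number of reads.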

Other observations

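Of 11 leak, inward rectifier and chloride channel genes tested, 3 rose (27.3%, against 20.9% of all tested genes), 2 fell (18.2%, against 31.6%) and 6 did not pass, with a median log2 change of 0.07. Under quantile normalisation 1 rose and 2 fell. The chloride channel gene ClC-a had 3.75 ± 0.45 RPKM in esc and 0.654 ± 0.032 RPKM in OrgR (SD, n = 2 sets each; log2 change 1.52, limma adjusted p = 0.00278). The inward rectifier gene Irk2 had 1.59 ± 1.05 RPKM in esc and 0.0603 ± 0.022 RPKM in OrgR (SD, n = 2 sets each; log2 change 1.22, limma adjusted p = 0.0280). The potassium leak channel gene Ork1 fell to 2.28 ± 0.12 RPKM in esc, against 4.99 ± 1.36 RPKM in OrgR (SD, n = 2 sets each; log2 change -0.85, limma adjusted p = 0.0221). The chloride channel gene ClC-b fell to 13.6 ± 1.88 RPKM in esc, against 20.7 ± 2.1 RPKM in OrgR (SD, n = 2 sets each; log2 change -0.58, limma adjusted p = 0.0292). With its OrgR mean under 0.5 RPKM, Irk2 passed the filter through its esc level, so its rise is partly set by the filter. The rise of Irk2 was lost under quantile normalisation (limma adjusted p = 0.0776), without OrgR set 1 (limma adjusted p = 0.0869) or OrgR set 2 (limma adjusted p = 0.0997), and the fall of Ork1 without OrgR set 2 or either esc set (limma adjusted p from 0.0632 to 0.0773). The fall of ClC-b was lost without OrgR set 1, OrgR set 2 or esc set 2 (limma adjusted p from 0.0634 to 0.122) and under median-of-ratios scaling (limma adjusted p = 0.0836). The rise of ClC-a passed in all 29 other settings.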
